A study of Homo sapiens with 35 samples.

Results

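The genes described here are 38 human genes of epithelial junctions and epithelial identity, chosen by symbol from the 60665 genes of a count table from total RNA sequencing of HEK293T cells. The choice was made with earlier results of these data known. HEK293T is an established line from human embryonic kidney. Cells were transfected with 5 nM siPOOLs, mixtures of siRNAs directed at the same transcript, and harvested after 72 h. The study depleted INTS13, part of the Integrator complex that cleaves nascent RNA, or 1 of 8 proteins studied with it, and deprived part of the cells of glucose. The question of the design was how far Integrator and these proteins share functions, and how they bear on the response to glucose starvation.

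The 35 libraries were placed in 3 sets from their titles and replicate numbers. In the first set 3 libraries had a control siPOOL and 2 each had the TSPYL2, ZNF608, ZNF609, ZNF687 or ZEB1 siPOOL. The second set had 4 control libraries and 2 each for INTS13, HDGF and ZNF655, all with glucose. It also had 4 control, 2 INTS13 and 2 HDGF libraries that spent the last 24 h without glucose. The third set had 2 ZMYND8 libraries and 2 controls labelled for them. No label named the control or the set of ZNF655, and its replicate numbers occur in the second and in the third set. It was placed in the second set by choice, and the second-set control was used. All groups came from this 1 line. Since the labels do not say whether replicates are separate cultures, p-values here reflect only the spread among these libraries, which may be technical.

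Epithelial cells are held together by adherens junctions, built on E-cadherin (CDH1), by desmosomes, built on desmoplakin (DSP) and plakoglobin (JUP), and by tight junctions of claudins, occludin and related MARVEL-domain proteins. Polarity proteins such as PATJ, CRB3 and LLGL2 separate apical from basolateral membrane, keratins 8 and 18 form the filaments of simple epithelia, and factors such as GRHL2, OVOL2, ELF3 and the splicing regulators ESRP1 and ESRP2 maintain the epithelial state. In the epithelial-mesenchymal transition, repressors of the ZEB, SNAI and TWIST families silence many of these genes. ZEB1, a target here, is a zinc finger repressor that binds E-box sequences in epithelial promoters.

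Promoter windows show where such an E-box lies. RefSeq promoter windows on GRCh38.p14, from 250 bases before to 50 after a gene's start, were held for 22 of the 38 genes as 30 entries. The hexamer CAGGTG, searched on both strands (CACCTG on the other) and itself a form of the general E-box CANNTG, was in 17 of the 30 entries (56.7%). Among all 35116 promoter windows 20.6% held it, and 68.7% held CANNTG. By gene, 16 of 22 had it in at least 1 entry (72.7%), against 24.1% of all 27305 genes. It was present in 4 of 7 genes that rose after INTS13 depletion and in 6 of 9 tested genes that did not. It was present in 1 of 3 genes that rose after ZEB1 depletion and in 5 of 7 tested genes called after neither. Windows for CDH1, EPCAM, SPINT2 and MARVELD3, among others, were not used here. These counts are descriptions of letters in a window and do not show binding.

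4 windows are given 5′ to 3′ with the hexamer, on either strand, in capitals. RAB25 (chr1:156060910-156061209, plus strand) and KRT8 (chr12:52926420-52926719, minus strand) are shown because both genes rose after INTS13 and after ZEB1 depletion, and they hold 2 matches and 0. The KRT8 window lies inside the gene as the count table places it (52897187 to 52949954), so a start at its outer end was not searched. PATJ (chr1:61742230-61742529, plus strand) and CRB3 (chr19:6464021-6464320, plus strand) were added after the matches were seen: PATJ, with 3 matches, rose after INTS13 depletion and did not pass after ZEB1 depletion, and CRB3, with 5, was called by edgeR in none of the 20 comparisons.
RAB25: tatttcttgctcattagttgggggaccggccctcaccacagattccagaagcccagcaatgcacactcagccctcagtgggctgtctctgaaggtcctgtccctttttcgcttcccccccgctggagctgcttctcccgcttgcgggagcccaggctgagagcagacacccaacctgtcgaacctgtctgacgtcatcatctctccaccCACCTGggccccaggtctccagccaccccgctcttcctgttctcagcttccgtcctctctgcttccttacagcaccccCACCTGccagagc
KRT8: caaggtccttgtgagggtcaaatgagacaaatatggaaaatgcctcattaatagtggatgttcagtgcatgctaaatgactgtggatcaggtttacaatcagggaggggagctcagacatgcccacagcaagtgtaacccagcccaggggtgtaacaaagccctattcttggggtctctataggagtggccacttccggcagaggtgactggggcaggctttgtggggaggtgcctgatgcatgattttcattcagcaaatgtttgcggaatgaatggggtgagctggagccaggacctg
PATJ: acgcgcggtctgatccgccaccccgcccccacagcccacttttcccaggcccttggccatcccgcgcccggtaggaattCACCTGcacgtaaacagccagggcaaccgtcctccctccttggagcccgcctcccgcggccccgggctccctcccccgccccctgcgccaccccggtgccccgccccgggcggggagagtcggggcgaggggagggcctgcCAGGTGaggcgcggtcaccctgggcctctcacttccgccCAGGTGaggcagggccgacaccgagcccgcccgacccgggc
CRB3: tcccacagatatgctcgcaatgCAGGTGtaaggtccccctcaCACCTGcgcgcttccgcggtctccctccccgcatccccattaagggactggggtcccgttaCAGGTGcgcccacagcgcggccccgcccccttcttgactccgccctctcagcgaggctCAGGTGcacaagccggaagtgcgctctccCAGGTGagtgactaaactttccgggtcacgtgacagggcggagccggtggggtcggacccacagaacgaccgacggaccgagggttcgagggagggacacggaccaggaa

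Of the 38 genes 27 passed the expression filter and could be tested. The other 11 had few reads: AP1M2 had 165 counts over all 35 libraries, CLDN6 137, ELF3 103, OVOL2 78, SPINT1 53, ESRP1 41, GRHL2 32, PKP3 14, CLDN3 and KRT19 4 each, and TMEM30B 0. Among the transcription and splicing factors of the epithelial state ESRP1, GRHL2, OVOL2 and ELF3 were at trace level, while ESRP2 (4.93 CPM per kb in the control libraries with glucose) and GRHL1 (1.68) had counts above the cutoff in all 35 libraries. 21 of the 27 reached the filter's cutoff (0.39 CPM, counts scaled to library size) in at least 1 library of every group. The other 6, RAB25, CLDN4, CLDN7, CRB3, PRSS8 and ST14, reached it in some groups only. PRSS8 did so in the INTS13 and ZEB1 groups alone and RAB25 in the ZEB1 and ZMYND8 groups alone, so those genes entered the test through groups in which they were high.

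Levels of the 27 genes in the 9 control libraries with glucose spanned a wide range per kilobase of exon. DSP, the desmosome's link to keratin filaments, had the highest mean at 24.9 CPM per kb (range 13.2 to 29.6), followed by the simple-epithelium keratin KRT18 at 17.8 (14.9 to 21.9). Next came LSR, a protein of tricellular junctions, at 9.54 CPM per kb (5.92 to 11.8), then the microtubule-binding MAP7 at 7.61 (6.29 to 9.5) and the protease inhibitor SPINT2 at 7.38 (5.39 to 11.5). Ranges overlapped for KRT18 and DSP, and for LSR, MAP7 and SPINT2. KRT8, the partner of KRT18, lay at 0.914 CPM per kb (0.632 to 1.34), well under KRT18. The adhesion genes EPCAM (0.582) and CDH1 (0.517), the receptor ERBB3 (0.463) and the transport protein MAL2 (0.425) lay near each other with overlapping ranges. PRSS8, a membrane serine protease, was lowest at 0.0149 CPM per kb. In CPM not divided by length, VIM, the gene of the mesenchymal intermediate filament vimentin, stood at 657 ± 22.4 (SD, n = 4) in the second-set controls. DSP averaged 271 in that unit and set. VIM belongs to a list of 23 mesenchymal genes, of which 15 passed the filter.

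**Figure D1:**
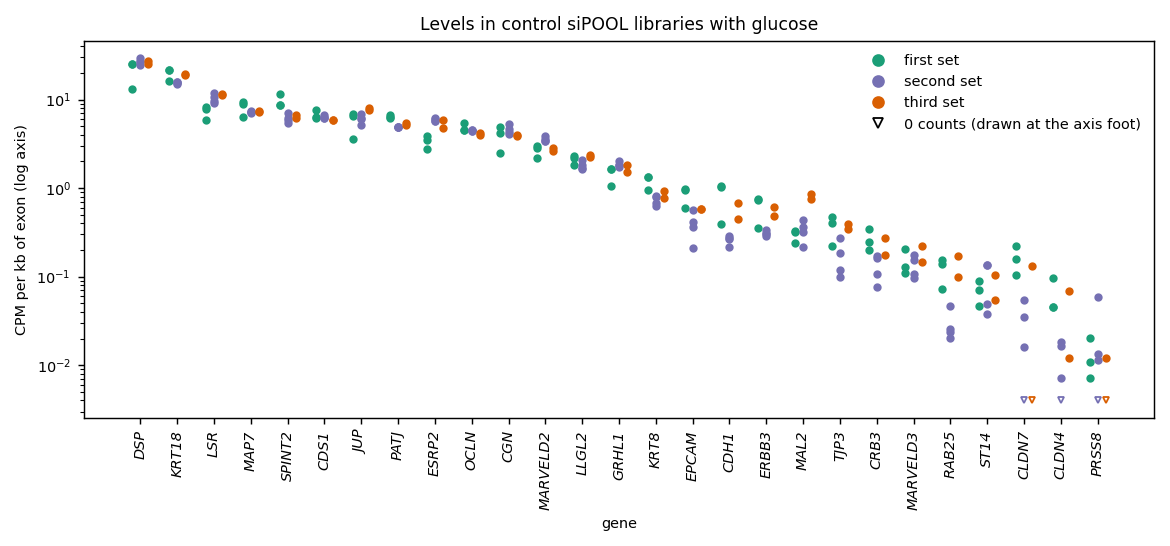
Levels per kilobase of exon (CPM per kb, log axis) of the 27 tested genes in the 9 control siPOOL libraries with glucose, coloured by set, with open triangles for 0 counts. DSP averaged 24.9 CPM per kb and PRSS8 0.0149, and the set means of CDH1 differed by 3.18-fold.

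The control level of several genes depended on the set. CDH1 averaged 5.06 CPM in the first-set controls, 1.59 in the second and 3.44 in the third, a ratio of 3.18 between the highest and the lowest. EPCAM ranged over 2.16-fold and MAL2 over 2.71-fold, whereas CDS1 and MAP7 each ranged over 1.15-fold or less. Depletions were therefore compared with controls of the set in which they were placed, which for ZNF655 was a choice. Total counts per library ran from 16766673 to 50790278, and every siPOOL target fell in its own depletion, INTS13 by 2.85 and ZEB1 by 1.63 on the log2 scale. Other targets had log2 fold changes of -3.58 (HDGF), -1.23 (TSPYL2), -1.09 (ZNF655), -1.04 (ZNF609), -0.94 (ZMYND8) and -0.84 (ZNF608). ZNF687 had -1.50, between TSPYL2 and ZEB1. In the first set the number 1 libraries stood apart: the share of counts from ribosomal protein genes was 12.6% in control 1a and 8.42% and 8.43% in controls 1b and 2, and it was 15.8% in ZEB1 library 1 and 8.7% in library 2. The titles number these controls 1a, 1b and 2 and the descriptions 1, 2a and 2b, and the numbers of the descriptions were used to pair libraries. First-set results are therefore also given with the replicate number as a block.

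After INTS13 depletion 16 of the 27 tested epithelial genes rose and 1 fell, against 6.53% of the 19275 genes tested that were called higher, 6.23% lower and 12.8% in all. The genes were chosen with earlier results of these data known, so this count is a description and not an independent test. Genes called have a Benjamini-Hochberg adjusted p under 0.05 from edgeR's quasi-likelihood test. Among the 21 that reached the cutoff in every group, 13 rose and 1 fell, with a median log2 fold change of 0.41, beside 0.01 over all genes tested. Without INTS13 library 3 the count called was 7 of 27, and against the 2 controls labelled for ZMYND8 it was 9. Both INTS13 libraries lay above every control in 20 of the 27 genes and below every control in 4, against 22.7% and 22.6% of all genes tested. Lack of overlap was therefore common over all genes. In these bulk libraries more RNA per cell and more cells expressing a gene cannot be told apart.

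EPCAM and CDH1, the cell-cell adhesion genes, had among the largest rises. EPCAM stood at 1.39, 0.51, 0.999 and 0.887 CPM in the 4 controls and at 6.78 and 5.26 in the 2 INTS13 libraries. Both depleted libraries lay above every control, and the log2 fold change was 2.65 ± 0.26 (SE), adjusted p = 7.50e-08. CDH1 stood at 1.76, 1.33, 1.61 and 1.65 CPM in the controls and at 8.25 and 8.61 after depletion. The groups did not overlap, and the change was 2.40 ± 0.38 (SE), adjusted p = 8.27e-05. Desmosomal genes did not pass: DSP had 0.41 ± 0.27 (SE), adjusted p = 0.369, and JUP 0.33 ± 0.19 (SE), adjusted p = 0.275, although both depleted libraries exceeded all 4 controls for each gene. Against the 2 controls labelled for ZMYND8, EPCAM kept its call (2.10 ± 0.31 (SE), adjusted p = 6.10e-05) and CDH1 did not (1.27 ± 0.44 (SE), adjusted p = 0.0525).

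Among the tight junction genes the MARVEL-domain members moved apart. MARVELD3 rose from 0.984, 0.627, 0.695 and 1.13 CPM to 3.06 and 2.77, with no overlap (1.75 ± 0.23 (SE), adjusted p = 6.53e-06). MARVELD2, which encodes tricellulin, rose from 18.3, 19.1, 18.2 and 20.6 to 24.9 and 25.5 CPM (0.41 ± 0.13 (SE), adjusted p = 0.0451). That call was lost without either INTS13 library and without control 3a, 3b or 4a. OCLN, encoding occludin, was the 1 gene that fell: controls were at 31.0, 30.5, 29.6 and 30.1 CPM and INTS13 libraries at 24.6 and 25.5, both lower than every control (-0.27 ± 0.08 (SE), adjusted p = 0.0199), a call lost without either INTS13 library. CLDN4, a sealing claudin, had 1, 2, 2 and 0 counts in the controls and 7 and 10 after depletion (2.62 ± 0.60 (SE), adjusted p = 0.00423). These few reads made a call that was lost without INTS13 library 4 and was small against the controls labelled for ZMYND8 (0.57 ± 0.56 (SE), adjusted p = 0.569). CLDN7 (1.25 ± 0.91), TJP3 (0.82 ± 0.40), CGN (-0.25 ± 0.25) and LSR (0.11 ± 0.12), given as log2 fold change ± SE, did not pass.

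2 of the 3 polarity genes rose. PATJ, a scaffold of the apical Crumbs complex, was at 58.2, 58.3, 58.7 and 59.1 CPM in the controls and at 103 and 109 after INTS13 depletion. The control values lay within 1 CPM of each other and both depleted libraries far above them (0.86 ± 0.09 (SE), adjusted p = 1.52e-07). LLGL2, a basolateral polarity protein, moved from 16.7, 14.5, 13.0 and 13.5 to 20.7 and 17.4 CPM (0.40 ± 0.12 (SE), adjusted p = 0.0268), a call lost without INTS13 library 3 and without control 3b, 4a or 4b. The LLGL2 call was also lost against the controls labelled for ZMYND8, which were at 18.8 and 17.8 CPM. CRB3 had 5, 7, 6 and 3 counts in the controls and 13 and 7 after depletion, and did not pass (adjusted p = 0.343).

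All 3 tested cytoskeletal genes rose, KRT8 most. KRT8 stood at 5.57, 4.35, 4.69 and 5.41 CPM in the controls and at 18.0 and 15.7 after depletion (1.75 ± 0.15 (SE), adjusted p = 6.62e-09), with every depleted value above every control. KRT18 moved from 48.9, 49.0, 45.8 and 47.6 to 60.3 and 59.2 CPM, a smaller change (0.32 ± 0.10 (SE), adjusted p = 0.0317). The KRT18 call was lost against the controls labelled for ZMYND8, which were at 57.4 and 59.4 CPM. MAP7 moved from 40.1, 39.4, 38.5 and 39.3 to 56.3 and 56.8 CPM (0.52 ± 0.13 (SE), adjusted p = 0.00655). The KRT18 and MAP7 calls were lost without either INTS13 library, that of KRT18 also without control 4a or 4b, and the KRT8 call was kept with each library left out.

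Of the membrane proteases and their inhibitors, SPINT2, a Kunitz-type inhibitor, stood at 35.9, 27.4, 31.4 and 30.1 CPM in the controls and at 77.7 and 72.2 after depletion (1.26 ± 0.13 (SE), adjusted p = 2.87e-07), without overlap. PRSS8, encoding prostasin, had 1, 0, 4 and 1 counts in the controls and 18 and 8 after depletion (2.95 ± 0.64 (SE), adjusted p = 0.00293), a call lost without INTS13 library 3. PRSS8 entered the test only through the INTS13 and ZEB1 groups, in which it was high, so its p-value carries that selection. ST14, encoding matriptase, did not pass (-0.37 ± 0.53). The 2 tested regulators did not pass either: ESRP2 had -0.28 ± 0.16 and GRHL1 -0.31 ± 0.21, both below 0.

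All 4 tested genes of trafficking, lipid synthesis and signalling rose. CDS1, which makes CDP-diacylglycerol, moved from 26.8, 29.2, 27.3 and 26.5 to 36.2 and 36.1 CPM (0.40 ± 0.11 (SE), adjusted p = 0.0127). ERBB3, a receptor of the EGF receptor family, moved from 2.95, 2.74, 2.52 and 2.7 to 5.15 and 5.14 CPM (0.91 ± 0.28 (SE), adjusted p = 0.0336). MAL2, a protein of transcytosis, moved from 1.49, 0.745, 1.26 and 1.09 to 2.3 and 2.12 CPM (0.94 ± 0.25 (SE), adjusted p = 0.0138). In each of these 3 genes the depleted libraries lay above all controls, but the calls were lost without either INTS13 library. Those of ERBB3 and MAL2 were also lost without control 3b, that of ERBB3 also without control 4a or 4b, and against the controls labelled for ZMYND8 MAL2 had the opposite sign (-0.33 ± 0.28 (SE), adjusted p = 0.474). ERBB3 did not pass against those controls (0.11 ± 0.33 (SE), adjusted p = 0.867), which were at 4.24 and 5.39 CPM. RAB25, a GTPase of apical recycling, had 1, 2, 1 and 1 counts in the controls and 8 and 8 after depletion (2.53 ± 0.83 (SE), adjusted p = 0.0433). Its call was lost whichever of the 6 libraries was left out, and against the controls labelled for ZMYND8. The calls of CDH1, EPCAM, SPINT2, MARVELD3, PATJ and KRT8, 6 of the 17, were kept with each library left out in turn.

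**Figure D2:**
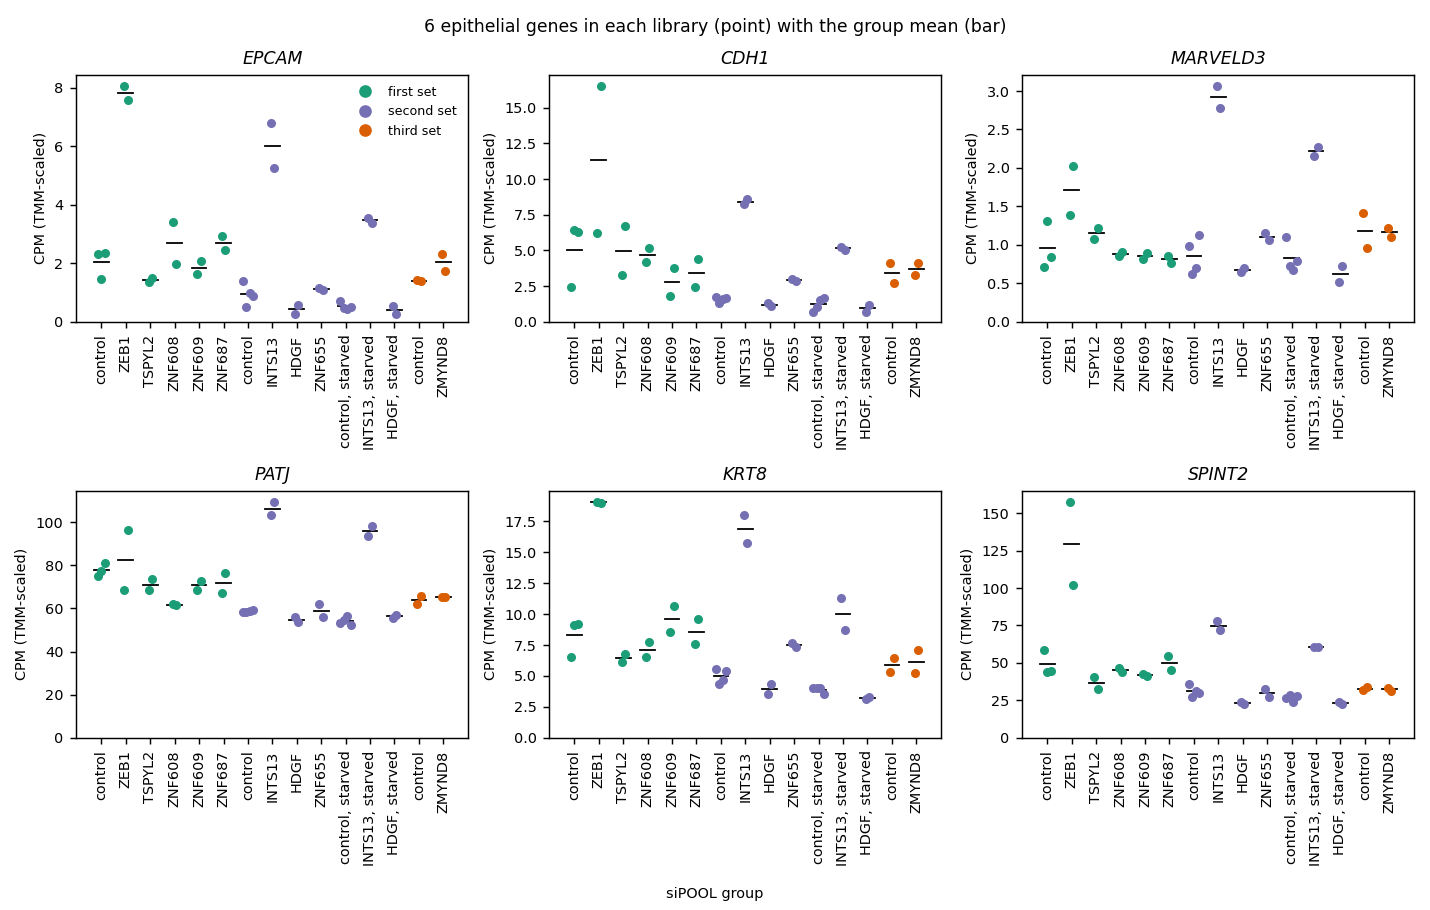
TMM-scaled CPM of EPCAM, CDH1, MARVELD3, PATJ, KRT8 and SPINT2 in each of the 35 libraries (points, coloured by set) with the mean of each siPOOL group (bars). The 2 INTS13 libraries lay above the second-set controls in all 6 panels, with and without glucose, and the ZEB1 libraries lay above the first-set controls for EPCAM, KRT8 and SPINT2, as also for MARVELD3.

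After ZEB1 depletion 10 of the 27 genes rose and 0 fell, against 1.78% of all genes tested called higher and 1.99% lower (3.77% in all). This count too is a description, since the genes were chosen with earlier results of these data known. Of the 21 genes that reached the cutoff in every group 8 rose, with a median log2 fold change of 0.35, beside 0.01 over all genes tested. With the replicate block 14 of the 27 rose and 0 fell over all libraries, beside 2630 of all 19275 genes called. With the block in the first set fitted alone 7 of 26 rose, beside 322 of 18913 genes called. In that set alone and with no block 3 rose, and without ZEB1 library 1 the count was 6.

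SPINT2 rose most clearly, from 58.5, 44.2 and 44.4 CPM in the 3 controls to 157 and 102 in the 2 ZEB1 libraries, both above the controls (1.40 ± 0.14 (SE), adjusted p = 8.79e-07). EPCAM rose from 2.3, 1.46 and 2.37 to 8.05 and 7.59 CPM (1.93 ± 0.25 (SE), adjusted p = 2.36e-05). KRT8 rose from 6.55, 9.09 and 9.19 to 19.0 and 19.0 CPM (1.20 ± 0.15 (SE), adjusted p = 2.36e-05). These 3 calls were kept with each library left out and under every other setting tried. KRT18 rose from 49.5, 67.1 and 65.8 to 95.1 and 78.6 CPM (0.51 ± 0.10 (SE), adjusted p = 0.00466), and LLGL2 from 14.4, 17.5 and 18.1 to 25.3 and 24.5 (0.58 ± 0.12 (SE), adjusted p = 0.00835). LSR, which marks tricellular contacts and did not pass after INTS13 depletion, rose from 17.3, 23.9 and 22.8 to 26.1 and 34.6 CPM (0.51 ± 0.13 (SE), adjusted p = 0.0228). In all 6 genes the depleted libraries exceeded the highest control. That held for 11 of the 27 genes, against 8.76% of all genes tested, and 0 of the 27 lay below every control, against 9.14%.

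Genes at low level rose as well after ZEB1 depletion. MAL2 went from 1.13, 0.821 and 1.1 to 2.86 and 1.68 CPM (1.12 ± 0.26 (SE), adjusted p = 0.0149) and MARVELD3 from 0.713, 1.31 and 0.839 to 1.39 and 2.03 (0.87 ± 0.24 (SE), adjusted p = 0.0418). RAB25 had 8, 4 and 11 counts in the controls and 29 and 39 in the ZEB1 libraries (2.30 ± 0.51 (SE), adjusted p = 0.0109). PRSS8 had 1, 2 and 1 counts and 8 and 17 (3.21 ± 0.71 (SE), adjusted p = 0.0111). RAB25 and PRSS8 entered the test through groups in which they were high, the ZEB1 group among them, so their p-values carry that selection. These 4 calls depended on single libraries: MAL2 and RAB25 lost theirs without control 1b or ZEB1 library 1, PRSS8 without control 2, and MARVELD3 without control 2 or either ZEB1 library. KRT18 and LLGL2 lost theirs without ZEB1 library 1, and LSR without ZEB1 library 2. In the first set fitted alone with the block, MARVELD3 (adjusted p = 0.0809), MAL2 (0.051) and KRT18 (0.0757) did not pass.

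CDH1, the E-cadherin gene that ZEB1 is known to repress, did not pass without a block (1.17 ± 0.36 (SE), adjusted p = 0.0677). Its controls were at 2.43, 6.44 and 6.31 CPM and the ZEB1 libraries at 6.19 and 16.5, so that the groups overlapped. In both groups the number 1 library was the lowest, and within a number the ZEB1 library was higher by 1.32 and 1.36 on the log2 CPM scale. With the block over all libraries CDH1 rose (1.30 ± 0.19 (SE), adjusted p = 3.76e-05), and likewise in the first set fitted alone (1.30 ± 0.19 (SE), adjusted p = 0.00362). DESeq2 called it without a block (adjusted p = 0.0431). The block over all libraries also called MARVELD2 (0.40 ± 0.09 (SE), adjusted p = 0.00529), MAP7 (adjusted p = 0.0397) and OCLN (0.26 ± 0.08 (SE), adjusted p = 0.0279) higher.

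INTS13 and ZEB1 depletion were compared with different control libraries, so their calls can be set side by side. 9 genes rose after both, EPCAM, KRT8, KRT18, LLGL2, MAL2, MARVELD3, PRSS8, RAB25 and SPINT2, but PRSS8 and RAB25 entered the test through groups in which they were high. Over the 21 genes that reached the cutoff in every group, 7 rose after both, which is 53.8% of the 13 that rose after INTS13 depletion and 87.5% of the 8 that rose after ZEB1 depletion. The share of all genes tested that rose after both was not counted, so this sharing is not shown to be particular to these genes. A test of the difference between the effects called 3 of the 27 genes, against 6.11% of all genes (3.06% with the INTS13 effect higher, 3.05% lower). PATJ rose more after INTS13 depletion (difference 0.77 ± 0.13 (SE), adjusted p = 0.000674): ZEB1 libraries were at 68.7 and 96.3 CPM and their controls at 74.8, 77.2 and 80.9. CLDN4 also differed (2.83 ± 0.76 (SE), adjusted p = 0.0258), with 8 and 8 counts in the ZEB1 libraries against 14, 7 and 10 in the controls. OCLN fell after INTS13 depletion and had 0.26 ± 0.08 after ZEB1 depletion, a difference of -0.53 ± 0.11 (SE), adjusted p = 0.00517. With the block the difference was called for 11 genes, and without control 1a for 8 and without ZEB1 library 2 for 9, among them PATJ each time. The CLDN4 difference was lost without INTS13 library 4, without control 3a or 4b, by DESeq2 and with control libraries of 1 number summed, and the OCLN difference was lost with no filter. For the other 24 genes no difference between the effects passed with all libraries, the filter and no block, which does not show that they were equal. With the block, differences also passed for CDH1 (1.10 ± 0.29 (SE)), CDS1, DSP, ERBB3 and KRT8, where the INTS13 effect was higher. They passed too for ESRP2 (-0.51 ± 0.12 (SE)), GRHL1 and LSR, where it was lower.

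**Figure D3:**
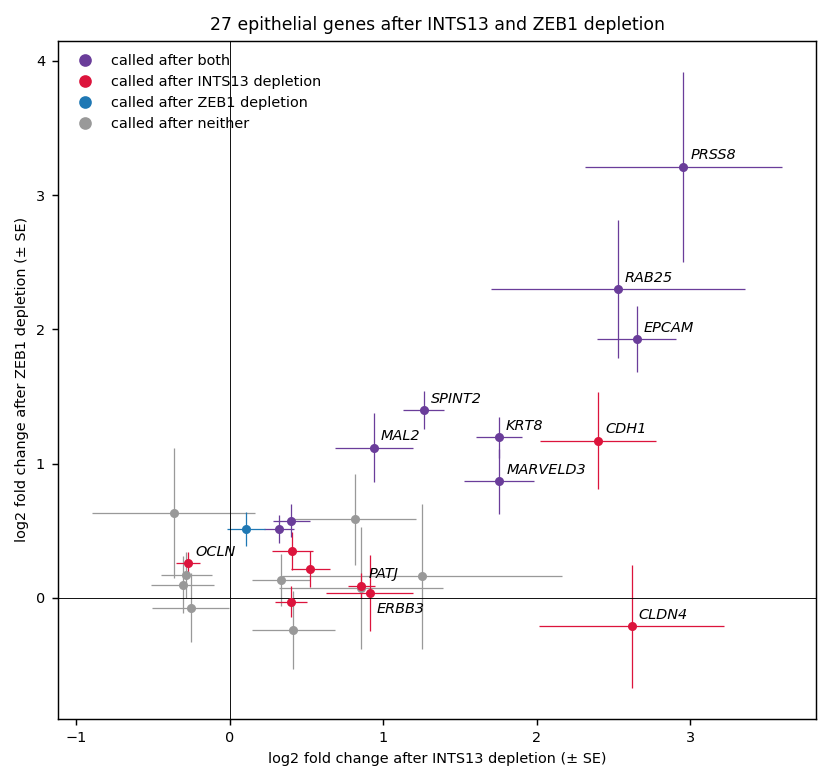
Log2 fold changes of the 27 genes after INTS13 depletion (x axis) and after ZEB1 depletion (y axis), with SE as error bars and colours for the calls. EPCAM lies at 2.65 and 1.93, PATJ at 0.86 and 0.09, and CLDN4 at 2.62 and -0.21.

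HDGF, a chromatin-bound growth factor, and ZNF655, a zinc finger protein, were compared with the same 4 controls as INTS13, so the 3 comparisons are not independent. After HDGF depletion 1 of 27 genes rose and 1 fell, against 4.49% of all genes called, 1.89% higher and 2.60% lower. CLDN4 had 9 and 12 counts in the HDGF libraries (3.03 ± 0.58 (SE), adjusted p = 0.0016), and OCLN was at 24.2 and 23.0 CPM (-0.36 ± 0.08 (SE), adjusted p = 0.00636). EPCAM had -1.15 ± 0.39 and KRT8 -0.34 ± 0.17, and neither passed. After ZNF655 depletion 4 genes rose and 1 fell, against 11.5% of all genes, 6.57% higher and 4.88% lower. KRT8 was at 7.63 and 7.33 CPM (0.58 ± 0.16 (SE), adjusted p = 0.0169), LLGL2 at 19.3 and 18.7 (0.40 ± 0.12 (SE), adjusted p = 0.0315) and ERBB3 at 5.14 and 4.85 (0.87 ± 0.28 (SE), adjusted p = 0.0474). CLDN4 had 6 and 8 counts (2.31 ± 0.63 (SE), adjusted p = 0.0163), and OCLN was at 23.9 and 23.1 CPM (-0.37 ± 0.08 (SE), adjusted p = 0.00265). OCLN was thus lower after each of the 3 depletions. With second-set controls replaced by those labelled for ZMYND8, OCLN had adjusted p-values of 0.336, 0.11 and 0.116 for INTS13, HDGF and ZNF655, and CLDN4 0.569, 0.25 and 0.853. KRT8 (0.248), LLGL2 (0.861) and ERBB3 (0.931) did not pass either after ZNF655 depletion, so 0 of its 5 calls were kept against these controls. Calls after ZNF655 depletion fell to 0 without ZNF655 library 4, and those after HDGF depletion to 0 without HDGF library 4.

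Compared directly, INTS13-depleted cells had 11 of the 27 genes higher than HDGF-depleted cells (8.23% of all genes called, 4.89% higher and 3.34% lower). They had 10 higher than ZNF655-depleted cells (6.80% called, 3.14% higher and 3.66% lower), and 0 were lower in either comparison. EPCAM differed by 3.81 ± 0.37 (SE), adjusted p = 1.22e-07 from HDGF-depleted cells and by 2.42 ± 0.31 (SE), adjusted p = 1.38e-05 from ZNF655-depleted cells. CDH1 differed by 2.81 ± 0.49 and 1.52 ± 0.44, MARVELD3 by 2.11 ± 0.29 and 1.40 ± 0.27, and PATJ by 0.96 ± 0.10 and 0.85 ± 0.10 (log2 ± SE). The CDH1 difference from ZNF655-depleted cells (adjusted p = 0.0328) was lost whichever of the 4 libraries was left out. Those of MARVELD3 and PATJ were kept each time. With either INTS13 library, or 1 library of the other depletion, left out the first count ran from 7 to 8 and the second was 6.

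In 5 further depletions edgeR called 0 of the 27 genes. Part of the target RNA remained in each, with target log2 fold changes from -0.84 (ZNF608) to -1.50 (ZNF687). Among the depletions with calls, ZEB1 had -1.63, ZNF655 -1.09, INTS13 -2.85 and HDGF -3.58. Whether the extent of depletion bears on these counts was not tested. A count of 0 here does not show that the protein has no effect on these genes. After depletion of TSPYL2, a member of the nucleosome assembly protein family, the calls over all genes came to 2.22% (1.14% higher and 1.08% lower), and 4 of the 27 had an unadjusted p under 0.05 and 0 passed by DESeq2. After depletion of the zinc finger protein ZNF608 the calls over all genes came to 2.76% (1.08% higher and 1.68% lower), 1 of the 27 had an unadjusted p under 0.05, and DESeq2 called 1, PATJ, lower (adjusted p = 0.00787). For its paralogue ZNF609 the calls over all genes came to 0.571% (0.192% higher and 0.379% lower), with 5 of the 27 below an unadjusted p of 0.05 and 0 by DESeq2. For ZNF687 the calls over all genes came to 0.254% (0.0674% higher and 0.187% lower), with 3 below an unadjusted p of 0.05 and 0 by DESeq2. For ZMYND8, a chromatin reader, the calls over all genes came to 0.747% (0.446% higher and 0.301% lower), with 1 below an unadjusted p of 0.05 and 0 by DESeq2. DESeq2 gave an adjusted p for 22 of the 27 after TSPYL2 depletion and for 21 after ZNF608, ZNF609 or ZMYND8 depletion. TSPYL2, ZNF608, ZNF609 and ZNF687 depletion share the 3 first-set controls with ZEB1 depletion. With the replicate number as a block, 3533 of all 19275 genes were called for TSPYL2 and 1668 for ZNF608. The counts of members with the block, given next, lay near those shares for TSPYL2 and ZNF608. Blocking on the replicate number gave 4 calls for TSPYL2: SPINT2 (-0.48 ± 0.10 (SE), adjusted p = 0.00331) and CDS1 (-0.31 ± 0.08 (SE), adjusted p = 0.0113) fell, and DSP (0.40 ± 0.13 (SE), adjusted p = 0.0337) and MARVELD2 (0.29 ± 0.09 (SE), adjusted p = 0.0293) rose. It gave 3 for ZNF608, with CGN (0.44 ± 0.11 (SE), adjusted p = 0.012) and MARVELD2 (0.36 ± 0.09 (SE), adjusted p = 0.0126) higher and PATJ lower (-0.30 ± 0.08 (SE), adjusted p = 0.0147). It gave 1 for ZNF687, CDS1, higher (0.32 ± 0.08 (SE), adjusted p = 0.0382). With the block in the first set fitted alone, edgeR called 0 of 26 tested genes for TSPYL2, ZNF608 or ZNF687, so these 8 calls were all lost. CDH1 in the ZMYND8 libraries was at 3.3 and 4.15 CPM against 4.13 and 2.75 in their controls, and EPCAM at 2.33 and 1.75 against 1.41 and 1.4. ZNF608 and ZNF609 libraries compared directly had 0 calls by edgeR. Between them the calls over all genes came to 0.887% (0.327% higher and 0.560% lower), with 3 of the 27 below an unadjusted p of 0.05 and 0 by DESeq2.

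**Figure D4:**
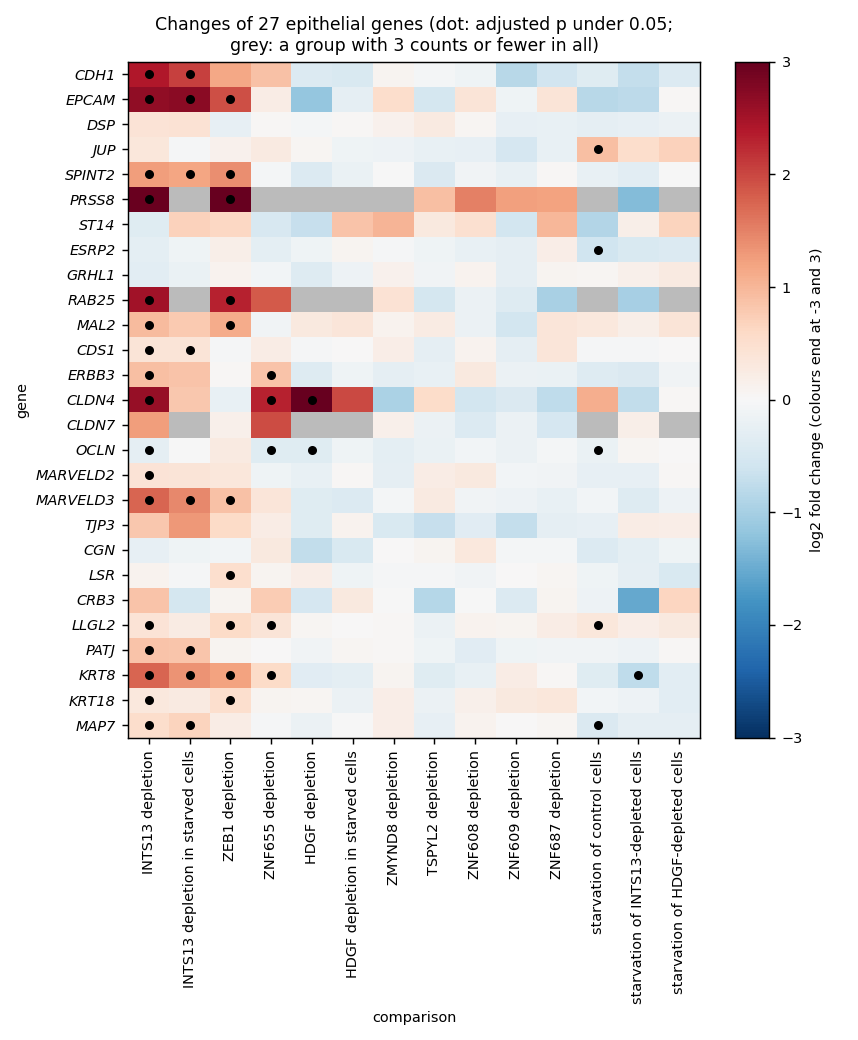
Log2 fold changes of the 27 genes, ordered by role, in 14 comparisons (colour scale from blue, lower, to red, higher), with a dot for adjusted p under 0.05 and grey where a group had 3 counts or fewer in all. Dots number 17 in the INTS13 column, 8 in that of INTS13 depletion without glucose and 10 in the ZEB1 column.

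Glucose starvation for 24 h moved 5 of the 27 genes in control cells, 2 higher and 3 lower, against 16.8% of all genes called, 8.77% higher and 8.05% lower. JUP, which links cadherins and desmosomes to the cytoskeleton, rose from 34.1, 25.5, 29.5 and 30.6 CPM to 57.3, 55.3, 53.4 and 57.0 (0.90 ± 0.15 (SE), adjusted p = 0.000184). Every starved library lay above every fed one. ESRP2, a splicing regulator of epithelial isoforms, fell from 29.6, 31.0, 29.9 and 32.1 to 21.5, 19.7, 20.5 and 18.6 CPM (-0.61 ± 0.13 (SE), adjusted p = 0.00215). MAP7 fell from 40.1, 39.4, 38.5 and 39.3 to 29.9, 28.2, 30.9 and 27.4 CPM (-0.43 ± 0.11 (SE), adjusted p = 0.00587). For both the starved values lay below all fed ones. OCLN fell from 31.0, 30.5, 29.6 and 30.1 to 26.3, 26.4, 27.9 and 24.7 CPM (-0.20 ± 0.06 (SE), adjusted p = 0.0286), and LLGL2 went from 16.7, 14.5, 13.0 and 13.5 to 19.9, 18.0, 16.1 and 19.8 CPM with overlapping libraries (0.35 ± 0.10 (SE), adjusted p = 0.0158). The calls of JUP, ESRP2 and MAP7 were kept with each library left out, and LLGL2 and OCLN lost theirs without several single libraries, fed control 4b and starved control 4b among them. With the 4 control libraries summed by number, so that 2 remained on each side, 1 of the 27 was called, JUP.

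In INTS13-depleted cells starvation moved 1 of the 27 genes (1.32% of all genes called, 0.856% higher and 0.467% lower): KRT8 fell from 18.0 and 15.7 to 11.3 and 8.71 CPM (-0.76 ± 0.17 (SE), adjusted p = 0.0268), a call lost whichever of the 4 libraries was left out. JUP had 0.53 ± 0.22 there and 0.70 ± 0.22 in HDGF-depleted cells, and ESRP2 had -0.45 ± 0.19 and -0.40 ± 0.19, none past the threshold. In HDGF-depleted cells edgeR called 0 of 27, and the calls over all genes came to 3.54% (2.09% higher and 1.45% lower). There 5 of the 27 had an unadjusted p under 0.05, and DESeq2 called 2, JUP higher (adjusted p = 0.0327) and LSR lower (0.027).

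**Figure D5:**
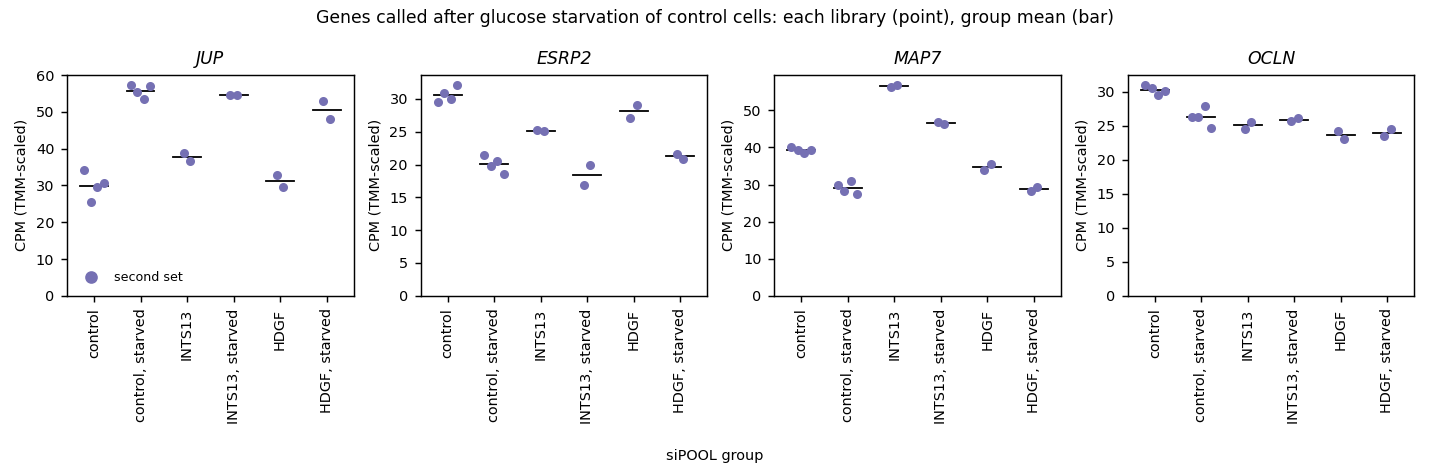
TMM-scaled CPM of JUP, ESRP2, MAP7 and OCLN in each second-set library with and without glucose (points) for the control, INTS13 and HDGF siPOOLs, with group means (bars). JUP rose from 29.9 to 55.8 CPM in control cells, and MAP7 was highest in the INTS13 group with glucose, at 56.6 CPM.

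Without glucose INTS13 depletion still raised 8 of the 27 genes and lowered 0, against 2.32% and 1.54% of all genes (3.86% in all). They were CDH1, CDS1, EPCAM, KRT8, MAP7, MARVELD3, PATJ and SPINT2, each of which also rose with glucose, and these 2 comparisons share no library. The share of all genes tested that rose in both was not counted. EPCAM was at 0.72, 0.466, 0.449 and 0.513 CPM in the starved controls and at 3.57 and 3.39 in the starved INTS13 libraries (2.70 ± 0.30 (SE), adjusted p = 1.95e-06). CDH1 was at 0.672, 1.06, 1.53 and 1.68 and 5.22 and 5.06 CPM (2.04 ± 0.42 (SE), adjusted p = 0.00400). PATJ was at 53.2, 54.4, 56.6 and 52.2 and 93.6 and 98.1 CPM (0.83 ± 0.09 (SE), adjusted p = 7.45e-07). SPINT2 was at 26.4, 28.4, 24.2 and 27.8 and 60.7 and 60.7 CPM (1.19 ± 0.14 (SE), adjusted p = 2.53e-06), and in these 4 genes no libraries overlapped. KRT8 had 1.35 ± 0.16 (SE), adjusted p = 4.11e-06, MARVELD3 1.44 ± 0.24 (SE), adjusted p = 0.000608, MAP7 0.68 ± 0.13 (SE), adjusted p = 0.00211 and CDS1 0.40 ± 0.11 (SE), adjusted p = 0.0349. Without starved INTS13 library 3 the count was 5: CDH1, MAP7 and CDS1 lost their calls. Among the 21 genes that reached the cutoff in every group the median was 0.44, beside 0.00 over all genes. Starved INTS13 libraries lay above every starved control in 18 of the 27 genes and below in 2, against 18.7% and 19.5% of all genes tested.

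The test of whether starvation changed the INTS13 effect called 0 of the 27 genes by edgeR, and the calls over all genes came to 0.0156% (0.0156% higher and 0% lower). Of the 27, 1 had an unadjusted p under 0.05, and DESeq2, which gave an adjusted p for 3 of them, called 0. EPCAM and CDH1 had interaction values of 0.05 ± 0.38 and -0.36 ± 0.58 (log2 ± SE). The corresponding test for HDGF called 0 by edgeR and 0 by DESeq2, with 0 of the 27 below an unadjusted p of 0.05 and 0% of all genes called. After HDGF depletion without glucose edgeR called 0 and DESeq2 0 of the 27, with 1 below an unadjusted p of 0.05, and the calls over all genes came to 0.659% (0.265% higher and 0.394% lower).

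With the filter and no block, edgeR called 7 of the 27 tested genes in none of the 20 comparisons: GRHL1, CLDN7, TJP3, CGN, CRB3, DSP and ST14. With other settings CGN, DSP, GRHL1 and TJP3 passed in at least 1: DESeq2 called CGN lower after HDGF depletion (adjusted p = 0.0481) and TJP3 higher after INTS13 depletion without glucose (0.0389), and DSP was higher after INTS13 depletion with no filter (0.0136) and in the second set fitted alone (2.16e-05). The group means of DSP ran from 178 CPM in the ZNF609 group to 361 in the INTS13 group. Those of CGN, which encodes the tight junction plaque protein cingulin, ran from 16.7 CPM in the starved HDGF group to 37.3 in the ZNF655 group. GRHL1, a grainyhead factor of epithelial barriers, ran from 9.5 CPM in the ZNF609 group to 15.2 in the starved control group. TJP3, which encodes the scaffold ZO-3, ran from 0.527 CPM in the HDGF group to 2.11 in the ZEB1 group, and ST14 from 0.185 CPM in the ZNF609 group to 0.705 in the ZMYND8 group. CLDN7, a claudin, had 8, 13 and 26 counts in the first-set controls and 4, 0, 2 and 1 in the second-set controls, which did not overlap in CPM. Among the genes under the filter, AP1M2, an adaptor subunit of basolateral sorting, had 7, 4, 4 and 4 counts in the second-set controls and 7 and 11 in the INTS13 libraries.

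Other genes of the pathway were counted as lists. Of 19 tested repressors and cofactors of the epithelial-mesenchymal transition 1 rose and 3 fell after INTS13 depletion (median log2 fold change -0.21), beside 6.53% and 6.23% of all genes. SNAI2, which encodes Slug, rose (0.84 ± 0.08 (SE), adjusted p = 1.12e-07). ZEB2 (-0.37 ± 0.10 (SE), adjusted p = 0.017) and the corepressor genes HDAC2 (-0.26 ± 0.08 (SE), adjusted p = 0.0271) and CTBP2 (-0.23 ± 0.07 (SE), adjusted p = 0.0224) fell. ZEB1 had -0.24 ± 0.11 and did not pass (adjusted p = 0.146). After ZEB1 depletion, where 1.78% of all genes rose and 1.99% fell, 0 of the list rose and 2 fell (median -0.15): ZEB1, the target, and SNAI2 (-0.41 ± 0.09 (SE), adjusted p = 0.0111), which had risen after INTS13 depletion. The genes of the miR-200 and miR-205 microRNAs, which target ZEB1 and ZEB2 messages, could not be tested, since 0 of 8 passed the filter and 6 had 0 counts in every library.

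Junction and polarity genes that HEK293T cells share with other cell types had 2 of 30 higher and 1 lower after INTS13 depletion (median -0.05) and 3 higher and 0 lower after ZEB1 depletion (median -0.15). The share of all genes called was 12.8% and 3.77%, and the count after INTS13 depletion lay near that background. F11R, which encodes the junctional adhesion molecule A, rose after both (0.99 ± 0.13 (SE), adjusted p = 1.06e-05, and 1.04 ± 0.14 (SE), adjusted p = 4.46e-05). CDH3, which encodes P-cadherin, rose by 1.36 ± 0.40 and 1.23 ± 0.32, the polarity gene PARD6A rose after ZEB1 depletion (1.19 ± 0.20 (SE), adjusted p = 0.000777), and the desmosomal relative PKP4 fell after INTS13 depletion (-0.39 ± 0.08 (SE), adjusted p = 0.00225).

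Of 15 tested mesenchymal genes 2 rose and 1 fell after INTS13 depletion (median 0.32) and 0 rose and 2 fell after ZEB1 depletion (median -0.39), beside 12.8% and 3.77% of all genes called. VIM fell after both: it was at 657 ± 22.4 (SD, n = 4) CPM in second-set controls and 372 ± 9.96 (SD, n = 2) in INTS13 libraries (-0.82 ± 0.08 (SE), adjusted p = 8.92e-08), and after ZEB1 depletion it changed by -0.39 ± 0.08 (SE), adjusted p = 0.00664. The smooth muscle actin gene ACTA2 (2.16 ± 0.23 (SE), adjusted p = 3.01e-07) and the collagen gene COL1A1 (1.24 ± 0.36 (SE), adjusted p = 0.0214) rose after INTS13 depletion. The matrix protease gene MMP2 fell after ZEB1 depletion (-1.38 ± 0.34 (SE), adjusted p = 0.0236). In the TGF-beta and BMP pathway, which can induce the transition, 1 of 22 genes rose and 1 fell after INTS13 depletion, BMP4 (0.46 ± 0.15) and the receptor BMPR2 (-0.86 ± 0.12), which is no more than the 12.8% of all genes called. After ZEB1 depletion ID2 rose (0.55 ± 0.15), and BMPR2 (-0.51 ± 0.12) and the receptor TGFBR1 (-0.84 ± 0.10) fell.

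Markers of other cell types were also counted. Of 8 kidney epithelium markers 3 were tested, of 13 squamous, basal and intestinal markers 2, and of 5 leukocyte and endothelial markers 1, and edgeR called 0 of these 6 after INTS13 or ZEB1 depletion. They were PAX2, LRP2, AQP1, KRT17, CDX2 and CD14, of which KRT17 had an unadjusted p under 0.05 after INTS13 depletion (log2 1.71 ± 0.75, adjusted p = 0.147). The part of these cell types in the results was not tested. UMOD, IVL, CEACAM5, CEACAM6 and CD3E had 0 counts in all 35 libraries. The summed level of the kidney markers was 89.6 to 102 CPM in second-set controls and 72.7 to 84.6 in INTS13 libraries, and 60.1 to 98.4 against 47.8 to 87.1 for ZEB1. That of the squamous, basal and intestinal markers was 28.9 to 35.9 against 25.2 to 28.6 CPM, and 29.1 to 30.7 against 26.5 to 33.9 for ZEB1. The leukocyte and endothelial markers summed to 0.339 to 0.565 against 0.696 to 0.775 CPM, and 0.0608 to 0.259 against 0.119 to 0.195.

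Some of the genes overlap others, and the strand setting of the counting was not given in the sources used here, so reads may be shared. KRT8 and KRT18 overlap by 1084 bases on opposite strands on chromosome 12. MARVELD3 (chromosome 16, 71626161 to 71642114, hg38) overlaps PHLPP2 by 4280 bases and SPINT2 (chromosome 19, 38244035 to 38292615) overlaps PPP1R14A by 5296 bases, both on the opposite strand. After INTS13 depletion PHLPP2 had -0.12 ± 0.09 and PPP1R14A 0.03 ± 0.23 (log2 ± SE), and after ZEB1 depletion -0.07 ± 0.09 and 0.51 ± 0.23, none past the threshold. EPCAM (chromosome 2, 47345158 to 47387601) and CDH1 (chromosome 16, 68737292 to 68835541) overlap only genes with fewer than 1 count per library on average.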

How the data were processed

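HEK293T total RNA was sequenced after ribosomal RNA removal with a stranded kit. The authors deposited 1 table of raw counts per gene, made before removal of duplicate reads as its name says, and per the submitters' processing notes FastQC, cutadapt, STAR and hg38 were used. How reads were assigned to genes (program, annotation, use of strand) is not given in the sources used here. Gene identifiers, symbols, positions and exon lengths are those of the deposited table.

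Groups came from the sample titles. Counts of all 35 libraries entered 1 quasi-likelihood fit of 15 group means in edgeR 4.0.16 (R 4.3.3) with TMM scaling. Its filterByExpr step kept 19275 of 60665 genes (minimum count 10). Contrasts were adjusted by the Benjamini-Hochberg method over all genes tested, SE is the absolute log2 fold change divided by the square root of F, and CPM are TMM-scaled. The fitting script was tested on simulated data. DESeq2 1.42.0, its size factors, no filter, libraries of 1 set alone, a replicate block, other controls and left-out libraries were the alternatives. Totals of 16766673 to 50790278 counts per library set the counting precision, and groups of 2 limit it further.

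Per-library values are given for genes called after INTS13 or ZEB1 depletion and for those highest per length, and other genes by list. The members and lists were chosen with earlier results of these data known. Same-numbered first-set libraries deviated together in 15 of 15 pairs of groups (median r 0.457, range 0.121 to 0.672), so their numbers were taken to pair them, with the first-set controls numbered as in their descriptions. In the second set 0 of 21 pairs of groups had r above 0.1. No 2 replicates agreed within counting noise (lowest chi-square per degree of freedom 2.89).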

Additional observations from a re-analysis of the deposited data

Results flagged for a closer look

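Each tested gene was checked for a library apart from the rest in both groups of 4, the second-set controls with and without glucose. A library was singled out where its gap to the nearest other, divided by the range, exceeded Dixon's critical value at the 95% level, and chance does so in about 1 in 20 groups. This happened in 2 of 54 groups. RAB25 in the starved controls had 0.0748 CPM in library 4a and 0 in the other 3 libraries. With those 3 tied at 0 any count in library 4a would be flagged, so the rate of 1 in 20 does not apply to it. KRT8 in the starved controls was at 3.55 CPM in library 4b, below the other 3, which lay between 4.00 and 4.03 CPM.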

How the results depend on the processing

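Counts of the 27 genes called moved with the controls, the estimate of spread and single libraries. Against the controls labelled for ZMYND8, INTS13 depletion called 9, HDGF depletion 4 and ZNF655 depletion 1, and MAL2 changed sign after INTS13 depletion (-0.33, adjusted p = 0.474) and after HDGF depletion (-0.98, adjusted p = 0.0281). Over all 19275 genes those controls gave 2719 calls for INTS13, 2533 for HDGF and 1755 for ZNF655. With libraries of the set alone the counts were 7 for HDGF, 10 for ZNF655, 1 for ZMYND8, 3 for ZEB1, 13 for starvation of control cells, 8 and 5 for starvation of INTS13- and HDGF-depleted cells, and 14 and 2 for INTS13 and HDGF depletion in starved cells. Over all genes that setting called 2981 (HDGF) and 5513 (ZNF655) of 18665, 1560 of 16564 (ZMYND8) and 28 of 18913 (ZEB1). Without a filter, ZNF609 depletion called 1, starvation of INTS13-depleted cells 2, starvation of HDGF-depleted cells 1 and the INTS13 effect against the ZEB1 effect 5. ZNF608 depletion called 1 with DESeq2 size factors (553 of all 19275 genes) and 1 with DESeq2 (928 of 15164). Starvation of HDGF-depleted cells called 2 with DESeq2. Where no count over all genes stands beside it, a count in this section only describes the setting.

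With the replicate block, counts were 5 for HDGF, 9 for ZNF655, 4 for TSPYL2, 3 for ZNF608, 1 for ZNF687, 10 for starvation of control cells, 3 and 3 for starvation of INTS13- and HDGF-depleted cells, and 14 and 2 for INTS13 and HDGF depletion in starved cells. The count was 11 for the INTS13 effect against the ZEB1 effect and 2 for ZNF608 against ZNF609 depletion. Over all 19275 genes the block called 1786 for HDGF, 4028 for ZNF655, 3533 for TSPYL2 and 1668 for ZNF608. In the second set and in the ZMYND8 set the replicates share only a number (median r 0.00083 and 0.0276 between groups).

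A pair of alternatives were chosen after seeing the data. With only the number 2 libraries of the first set, whose lone depleted library is assumed to vary like the other groups, the counts were 4 for TSPYL2, 3 for ZNF608, 4 for ZNF609, 1 for ZNF687, 11 for the INTS13 effect against the ZEB1 effect and 1 for ZNF608 against ZNF609 depletion. With control libraries of 1 number summed they were 10 for INTS13, 2 for ZNF655 and 1 for starvation of control cells. Over all 19275 genes the summed controls gave 1347 calls for INTS13 and 1113 for ZNF655.

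With each library left out in turn, where a group left with 1 library is assumed to vary like the others, the count ran from 7 to 15 for INTS13, 0 to 3 for HDGF, 0 to 4 for ZNF655, 6 to 10 for ZEB1, 0 to 1 for ZNF608, 0 to 1 for ZNF609, 3 to 5 for starvation of control cells and 5 to 9 for INTS13 depletion in starved cells. It was 0 in each case for starvation of INTS13-depleted cells, 7 to 8 for INTS13 against HDGF, 6 in each case for INTS13 against ZNF655 and 2 to 9 for the INTS13 effect against the ZEB1 effect. The cause of these differences was not tested. EPCAM, SPINT2, MARVELD3, PATJ and KRT8 kept their calls after INTS13 depletion with and without glucose, and EPCAM, SPINT2 and KRT8 after ZEB1 depletion, under each alternative run for that comparison. The controls labelled for ZMYND8 were not set against starved libraries. Depth limits the 6 genes that reached the cutoff in some groups only, where a few counts make a call.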
